A study of Mus musculus with 8 samples.

Results

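The genes described here encode fibronectin (Fn1), the tenascins Tnc and Tnxb, the thrombospondins Thbs1, Thbs2 and Thbs3, periostin (Postn), Cthrc1, Sparc and versican (Vcan), all secreted proteins of the extracellular matrix. They were taken by symbol from a deposited table of 16464 mouse genes, and all 10 were present and were tested (a mean value of at least 0.5). The samples were posterior knee capsules of wild-type male C57BL/6 mice, all 10 weeks old when sampled. The cast group, with 4 libraries, came from mice whose knees were immobilised at 140 degrees for 2 weeks from the age of 8 weeks, and the naive group, also with 4 libraries, from mice labelled naive. The labels do not tie libraries to separate mice, and the spread behind each p value may therefore be technical.

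The joint capsule is a fibrous sheet built by fibroblasts, with a synovial lining on its inner face and fat and muscle close by. Its strength comes from collagen fibrils, and the proteins described here lie between those fibrils and the cells. Fibronectin is assembled by cells into fibres through integrins and gives collagen and other matrix proteins a scaffold to settle on. Tenascin-C, thrombospondin 1, periostin and Sparc are called matricellular proteins because they change how cells attach and signal more than they bear load, and many of them are known for high levels in wounds and growing tissue and low levels in resting tissue. Tenascin-X belongs to the same family as tenascin-C but is typical of mature connective tissue, where its loss leaves skin and joints lax.

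Library totals of the deposited values ran from 972758 to 1045290. The values are normalised read counts, that is, reads per gene scaled by a factor for each library. Since they were whole multiples of a step per library, reads could be counted back: 5956148 to 7381255 per cast library and 1503880 to 6805349 per naive library. Naive replicate 4 was the shallow one, and Pearson's r of its log2 values with those of the other naive libraries, over genes that are not independent replicates, was 0.904 to 0.915, where the others reached 0.983 to 0.985 with one another. The 14 fibroblast markers had summed values of 20346 to 27766 in cast and 18460 to 26699 in naive libraries, so the sums overlapped. By the test used below, 1 of the 14 rose (Lum) and 2 fell (Dpp4 and Mfap5), and 0 were at 0 throughout a group. The sum includes the collagen genes Col1a1 and Col1a2 and does not measure the number of fibroblasts. Markers of some other cell types differed between the groups. Among 12 macrophage and 10 endothelial markers 0 passed the test used below, and both sums overlapped between the groups. The 14 skeletal muscle markers in the table summed to 49.8 to 786 in cast and 176 to 6144 in naive libraries, the 13 neutrophil and marrow markers to 890 to 6547 in cast and 30.4 to 80.9 in naive libraries, the 10 erythroid markers to 6054 to 29734 in cast and 1727 to 2988 in naive libraries, and the 10 fat cell markers to 3129 to 8841 in cast and 7198 to 11316 in naive libraries. By the test used below, 5 of the 14 muscle markers and 4 of the 10 fat markers fell. By the same test 9 of the 13 neutrophil and 9 of the 10 erythroid markers rose. The erythroid marker Hbb-bs was at 0 in all naive libraries, although the erythroid sum there was 1727 to 2988. The part of these cells in the results below was not tested, except that a fit with the level of the muscle markers was run. Muscle sums were 3130 to 6144 in naive replicates 1 to 3, and only the shallow naive replicate 4 (176) lay within the cast range. Because muscle level and group went largely together, that fit cannot decide the part of muscle. In bulk tissue, fewer cells of a type and less RNA per cell cannot be told apart.

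Casting was followed by lower RNA of fibronectin, tenascin-X and thrombospondin 3 and higher RNA of Cthrc1. Of the 10 genes, 1 was higher, 3 were lower and 6 did not pass the test (limma across 15120 genes, Benjamini-Hochberg adjusted p at most 0.05). Over all genes tested, 12.0% were called, 6.51% higher and 5.46% lower, and the 10 genes had a median log2 fold change of -0.085 against 0.067 for all genes. In 5 of the 10 genes every library of one group lay above every library of the other, against 20.5% of all genes tested (11.1% with the cast libraries above and 9.39% with them below). These 5 were the 4 called genes and Sparc, of which Cthrc1 had the cast libraries above and the rest below. A positive log2 fold change means a higher mean of log2(value + 1) in cast than in naive libraries. Means of values carry the SD over the 4 libraries of a group, and adjusted p without another name comes from limma with the Benjamini-Hochberg method.

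**Figure D1:**
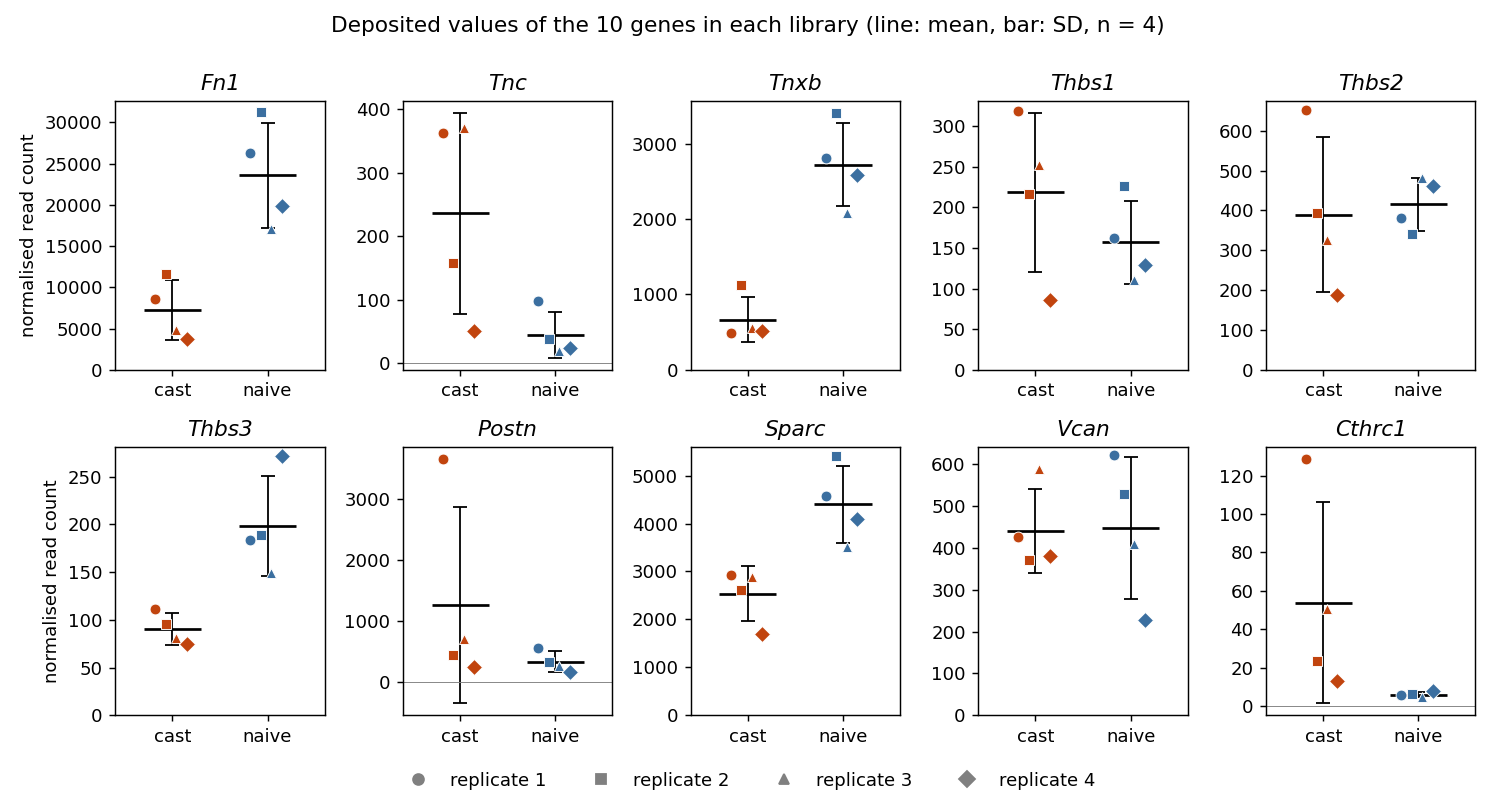
Normalised read count (vertical axis, linear, a separate scale for each gene) of the 10 genes in cast and naive libraries; each marker is 1 library, its shape the replicate number, with the group mean as a line and the SD as a bar (n = 4). The groups are apart for Fn1, Tnxb, Thbs3, Sparc and Cthrc1, and cast replicate 1 stands far above the other cast libraries for Postn.

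Fibronectin RNA fell about 3-fold after casting. Fn1 (chromosome 1, 71585520 to 71653200, minus strand, build GRCm38) had values of 8616, 11660.5, 4821 and 3776 in cast replicates 1 to 4, against 26238, 31217, 17123 and 19831 in naive replicates 1 to 4. Every cast library lay below every naive library, and the highest cast library, replicate 2, reached 11660.5 where the lowest naive library, replicate 3, had 17123. The mean was 7218 ± 3619 in cast and 23602 ± 6355 in naive capsules (log2 fold change -1.81, SE 0.48, adjusted p = 0.0390). Fn1 alone took 0.730 ± 0.367% of all values in cast and 2.32 ± 0.562% in naive capsules. By values not divided by length it ranked first or second among all genes in each naive library, and in cast replicates 1 to 4 it ranked 5, 3, 15 and 20. Per 1000 units of the summed fibroblast markers, Fn1 was 186 to 544 in cast and 807 to 1169 in naive libraries, so the groups were apart on that scale too. The call was close to the threshold. It was lost without cast replicates 3 or 4 or naive replicates 1, 2 or 3 (adjusted p = 0.118, 0.0814, 0.0922, 0.0980 and 0.0722), with quantile normalisation (0.0894) and with the muscle marker level as a covariate (log2 fold change -1.73, adjusted p = 0.144), while the log2 fold change stayed between -2.43 and -1.495 in all alternatives.

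Of the tenascins, Tnxb passed the test and Tnc, Tnn and Tnr did not. Tenascin-X, which binds collagen fibrils of mature connective tissue, fell about 4-fold. Tnxb (chromosome 17, 34670535 to 34719815, plus strand) had 483, 1119.8, 551 and 512 in cast replicates 1 to 4, against 2816, 3413, 2077 and 2587 in naive replicates 1 to 4. The groups did not overlap, and cast replicate 2 stood above the other cast libraries, which lay close together. The mean was 667 ± 303 in cast and 2723 ± 554 in naive capsules (log2 fold change -2.10, SE 0.31, adjusted p = 0.00338). The call held in all 20 alternatives, with log2 fold changes of -2.41 to -1.97 and adjusted p of at most 0.0164.

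Tenascin-C, the tenascin of wounds and of tissue under strain, pointed the other way without passing the test. Tnc (chromosome 4, 63959785 to 64047015, minus strand) had 363, 158, 371 and 51.3 in cast replicates 1 to 4, against 97.6, 38.6, 19.7 and 24.6 in naive replicates 1 to 4. Cast replicate 4 lay below naive replicate 1, so the groups overlapped by that pair. The log2 fold change was 2.27 (SE 0.67, adjusted p = 0.0558; mean 236 ± 158 in cast and 45.1 ± 35.9 in naive capsules), and it passed in 7 of 20 alternatives, among them without cast replicate 4 (2.88, adjusted p = 0.0155) and without naive replicate 1 (2.73, adjusted p = 0.0333). The ratio of Tnc to Tnxb within a library does not depend on the scaling of libraries. It was 0.752, 0.141, 0.673 and 0.1003 in cast replicates 1 to 4, against 0.0347, 0.0113, 0.00947 and 0.00950 in naive replicates 1 to 4, so that every cast library had a higher ratio than any naive library. The difference was 4.41 on the log2 scale (two-sided exact permutation p = 0.0286, the smallest that 4 against 4 allows). Adjusted over 6 pairs of paralogues this exact permutation p was 0.0857, and none of the pairs passed. Since 1 pair alone at the smallest p cannot pass over 6 pairs, that adjusted p cannot decide whether the ratio differed.

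The remaining tenascins were low. Tnn, tenascin-W, which is known from bone and tendon borders, had 86.5, 7.34, 28.4 and 3.60 in cast replicates 1 to 4, against 6.78, 1.61, 1.32 and 1.29 in naive replicates 1 to 4. The groups overlapped through cast replicate 4 and naive replicate 1, as they did for Tnc (log2 fold change 2.46, adjusted p = 0.0904). It passed in 4 of 20 alternatives, with edgeR (3.37, adjusted p = 0.0481), with DESeq2 (3.49, adjusted p = 0.0112), without cast replicate 4 (3.11, adjusted p = 0.0390) and with the replicate number as a block (0.0311). Tnr, tenascin-R of the nervous system, was near the detection limit at 0 to 1.32 in cast and 0.992 to 4.36 in naive libraries (log2 fold change -1.07, adjusted p = 0.118). It passed in 1 of 18 alternatives, quantile normalisation (-1.26, adjusted p = 0.0474), and its log2 fold change was -0.39 with a pseudocount of 5, -2.08 with DESeq2 and -0.64 with the muscle covariate.

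Among the thrombospondins, Thbs3 fell and the others did not pass the test. Thbs3, which is known from growing cartilage and bone and belongs to the subgroup that also holds Thbs4 and Comp (chromosome 3, 89215180 to 89226837, plus strand), had 111, 95.6, 81.1 and 74.4 in cast replicates 1 to 4, against 184, 189, 149 and 272 in naive replicates 1 to 4. The groups did not overlap. The mean was 90.6 ± 16.4 in cast and 198 ± 51.9 in naive capsules (log2 fold change -1.10, SE 0.22, adjusted p = 0.0116), and the call held in all 20 alternatives with log2 fold changes of -1.41 to -0.94. Exons of Mtx1 on the other strand cover 6.59% of the exon bases of Thbs3, and strand use in counting is not given in the sources used here. Of 9 tested cartilage markers 1 rose and 2 fell, with sums of 619 to 865 in cast and 715 to 1133 in naive libraries. The marker that rose, Matn3, was at 0 in all naive libraries. The part of cartilage in the Thbs3 values was not tested.

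Thbs1, an activator of latent TGF-beta and inhibitor of vessel growth that platelets also store, had 319, 216, 252 and 86.4 in cast replicates 1 to 4, against 162, 226, 111 and 129 in naive replicates 1 to 4. Cast replicate 4 was the lowest of all 8 libraries and cast replicates 1 and 3 the highest. The log2 fold change of 0.38 was smaller than its SE of 0.39 (adjusted p = 0.583). Of 10 platelet markers 7 rose, with sums of 136 to 232 in cast and 75.5 to 246 in naive libraries. Gp6, among those that rose, was at 0 in all naive libraries. The part of platelets in the Thbs1 values was not tested. Thbs2, the fibroblast thrombospondin whose loss in mice gives irregular collagen fibrils, had 651, 392, 326 and 188 in cast replicates 1 to 4, against 380.02, 341, 481 and 461 in naive replicates 1 to 4. The cast libraries spread on both sides of all naive ones (log2 fold change -0.22, SE 0.34, adjusted p = 0.721). The related Thbs4, found in tendon and muscle, had a mean of 337 ± 159 in cast and 215 ± 31.9 in naive capsules (log2 fold change 0.53, adjusted p = 0.340), and Comp, the cartilage oligomeric matrix protein, 616 ± 142 in cast and 856 ± 194 in naive capsules (log2 fold change -0.47, adjusted p = 0.253). Within libraries, Thbs1 over Thbs3 was 2.87, 2.26, 3.11 and 1.16 in cast replicates 1 to 4, against 0.883, 1.20, 0.743 and 0.474 in naive replicates 1 to 4. Cast replicate 4 lay just under naive replicate 2 there (difference 1.49 on the log2 scale, two-sided exact permutation p = 0.0571, adjusted p = 0.0857 over the 6 pairs). The ratio of Thbs1 to Thbs2 had a difference of 0.60 (exact permutation p = 0.200, adjusted p = 0.240) and that of Thbs2 to Thbs3 one of 0.89 (exact permutation p = 0.0571, adjusted p = 0.0857).

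Cthrc1, very low in naive capsules, rose after casting, and periostin was high in 1 cast library. Cthrc1, a secreted glycoprotein found in injured arteries of rats and made by activated fibroblasts (chromosome 15, 39076932 to 39087121, plus strand), had 129, 23.5, 50.3 and 12.9 in cast replicates 1 to 4, against 5.58, 6.13, 4.63 and 7.76 in naive replicates 1 to 4. Every cast library was above every naive library, although the cast libraries themselves ranged about 10-fold. The mean was 53.9 ± 52.3 in cast and 6.02 ± 1.31 in naive capsules (log2 fold change 2.49, SE 0.58, adjusted p = 0.0231). The naive values rest on 37, 38, 28 and 12 reads in replicates 1 to 4. The call was lost without cast replicate 3 (2.35, adjusted p = 0.0734), naive replicate 1 (2.46, adjusted p = 0.0509), naive replicate 2 (2.499, adjusted p = 0.0597) or naive replicate 3 (2.39, adjusted p = 0.0639), as it was when cast replicates 1 and 2, the ones highest in neutrophil and marrow markers, were both left out (1.95, adjusted p = 0.0822).

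Postn, periostin, a collagen-binding protein of periosteum, ligament and healing tissue (chromosome 3, 54361109 to 54391037, plus strand), had 3649.5, 442, 702 and 238 in cast replicates 1 to 4, against 559, 331, 268 and 169 in naive replicates 1 to 4. Cast replicate 1 was more than 5 times as high as any other cast library, cast replicate 4 lay within the naive range, and the groups overlapped. The mean was 1258 ± 1606 in cast and 332 ± 166 in naive capsules, and the log2 fold change was 1.25 (SE 0.74, adjusted p = 0.321). Without cast replicate 1 it was 0.47 (adjusted p = 0.579), without cast replicates 1 and 2 it was 0.43 (adjusted p = 0.712), with edgeR and DESeq2 it was 1.93 in each (adjusted p = 0.139 and 0.129), and with the muscle covariate it was 2.73 (adjusted p = 0.0602). Bone markers summed to 115 to 226 in cast and 28.5 to 156 in naive libraries. The sum was highest in cast replicate 1 and lowest in the shallow naive replicate 4. Of 8 tested bone markers 2 rose (Runx2 and Ibsp) and 2 fell (Bglap and Bglap2). The part of bone or periosteal cells in the Postn values was not tested. Tgfbi, the paralogue of periostin, was lower in every cast library than in any naive library at 484 ± 94.6 in cast and 885 ± 269 in naive capsules, without passing (log2 fold change -0.84, adjusted p = 0.0581). It passed in 5 of 20 alternatives, among them the muscle covariate (-1.35, adjusted p = 0.0157). The ratio of Postn to Tgfbi was 0.613 to 7.96 in cast and 0.134 to 0.747 in naive libraries (difference 2.10 on the log2 scale, two-sided exact permutation p = 0.0571, adjusted p = 0.0857).

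Sparc and versican are the remaining members. Sparc, a collagen-binding protein that helps collagen secretion and fibril assembly (chromosome 11, 55394500 to 55423183, minus strand), had 2934, 2621, 2885 and 1695 in cast replicates 1 to 4, against 4580.2, 5418, 3519 and 4089 in naive replicates 1 to 4. Every cast library lay below every naive library, yet the gene did not pass (2534 ± 576 in cast and 4402 ± 804 in naive capsules, log2 fold change -0.81, SE 0.29, adjusted p = 0.111). DESeq2 on recovered reads was the only alternative that called it (-0.80, adjusted p = 0.00831). Its relative Sparcl1, of vessels and stroma, had 341 ± 85.4 in cast and 544 ± 147 in naive capsules (log2 fold change -0.66, adjusted p = 0.130), and the ratio of Sparc to Sparcl1 had a difference of -0.15 on the log2 scale (exact permutation p = 0.743). Vcan, versican, a hyaluronan-binding proteoglycan of loose matrix (chromosome 13, 89655312 to 89742509, minus strand), had 426, 370.2, 587 and 379.7 in cast replicates 1 to 4, against 622, 529, 409.6 and 228 in naive replicates 1 to 4. The cast values lay wholly within the naive range (log2 fold change 0.049, SE 0.31, adjusted p = 0.937).

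**Figure D2:**
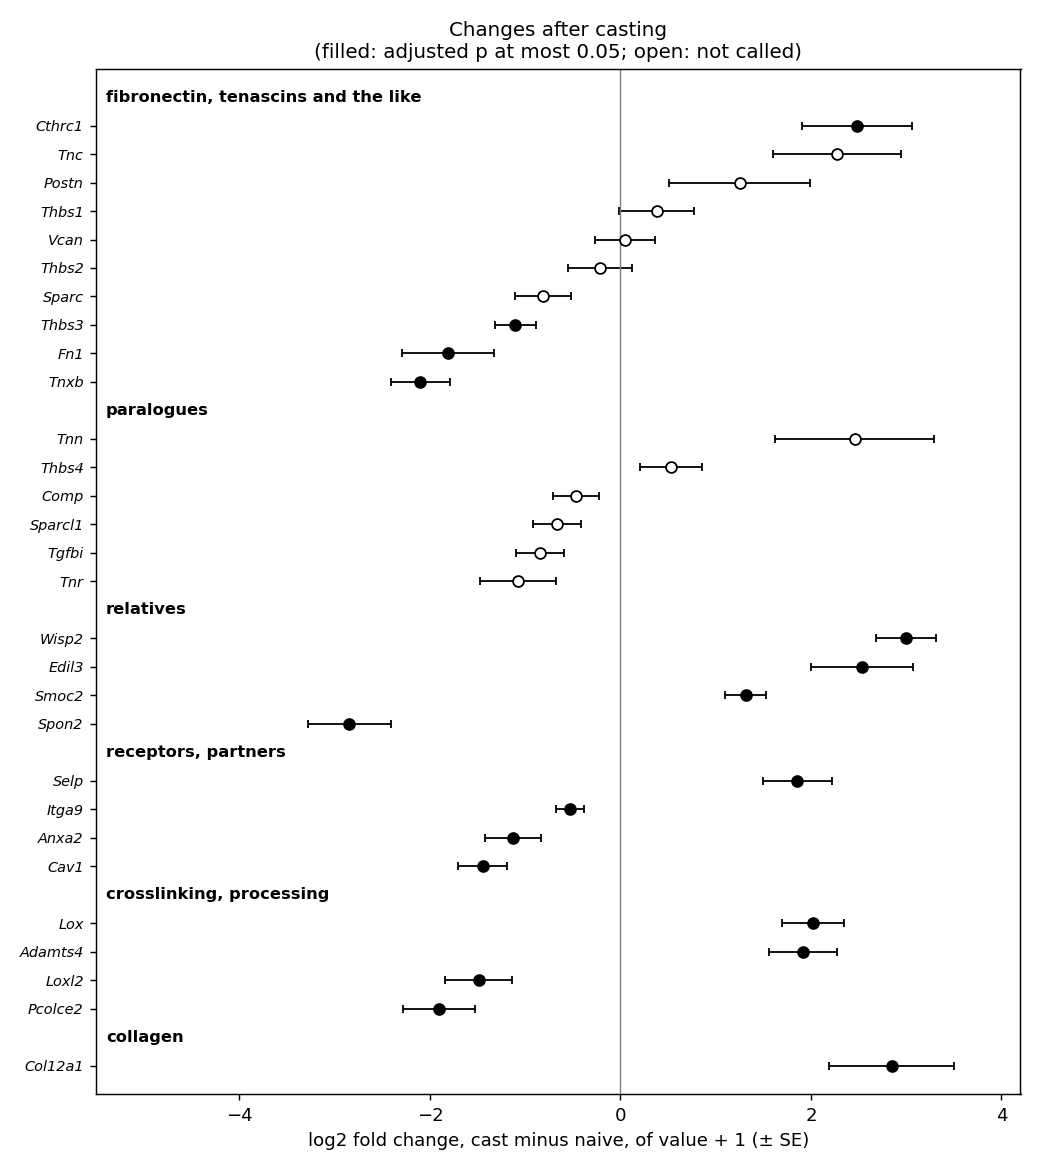
Log2 fold change of value + 1, cast minus naive (horizontal axis), with its SE as a bar, for the 10 genes and for their paralogues, relatives, receptors, processing genes and 1 collagen; filled points passed the test and open points did not (adjusted p at most 0.05 by limma). Among the 10, the points run from Tnxb at -2.10 to Cthrc1 at 2.49.

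Levels can be compared between genes only per length, and per kilobase of annotated exon the order of the 10 genes differed between the groups. In naive capsules Fn1 led with a level of 2019.9 ± 544 per kilobase, followed by Sparc with 1162 ± 212 and Tnxb with 223 ± 45.4. Each of these lay above the next in all 4 naive libraries. Thbs2 (59.4 ± 9.44), Thbs3 (41.1 ± 10.8), Postn (38.1 ± 19.0), Vcan (30.9 ± 11.8) and Thbs1 (25.9 ± 8.37) came next, and each pair of neighbours from Thbs2 on overlapped over libraries. Tnc (5.80 ± 4.62) and Cthrc1 (3.78 ± 0.825) were lowest, with libraries that overlapped each other but lay below those of Thbs1. In cast capsules Sparc (669 ± 152) and Fn1 (618 ± 310) headed the order, then Postn (145 ± 185), Thbs2 (55.6 ± 27.7), Tnxb (54.6 ± 24.9), Thbs1 (35.98 ± 16.1), Cthrc1 (33.8 ± 32.8), Vcan (30.5 ± 6.95), Tnc (30.4 ± 20.3) and Thbs3 (18.8 ± 3.41). All neighbours in the cast order overlapped. Together the 10 genes took 1.32 ± 0.527% of all values in cast and 3.19 ± 0.689% in naive capsules, of which Fn1 was 54.0 ± 10.1% in cast and 72.7 ± 1.88% in naive capsules. The exon length is that of all annotated transcripts of a gene merged, and splice forms of Fn1, Tnc and Vcan could not be told apart in these values.

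**Figure D3:**
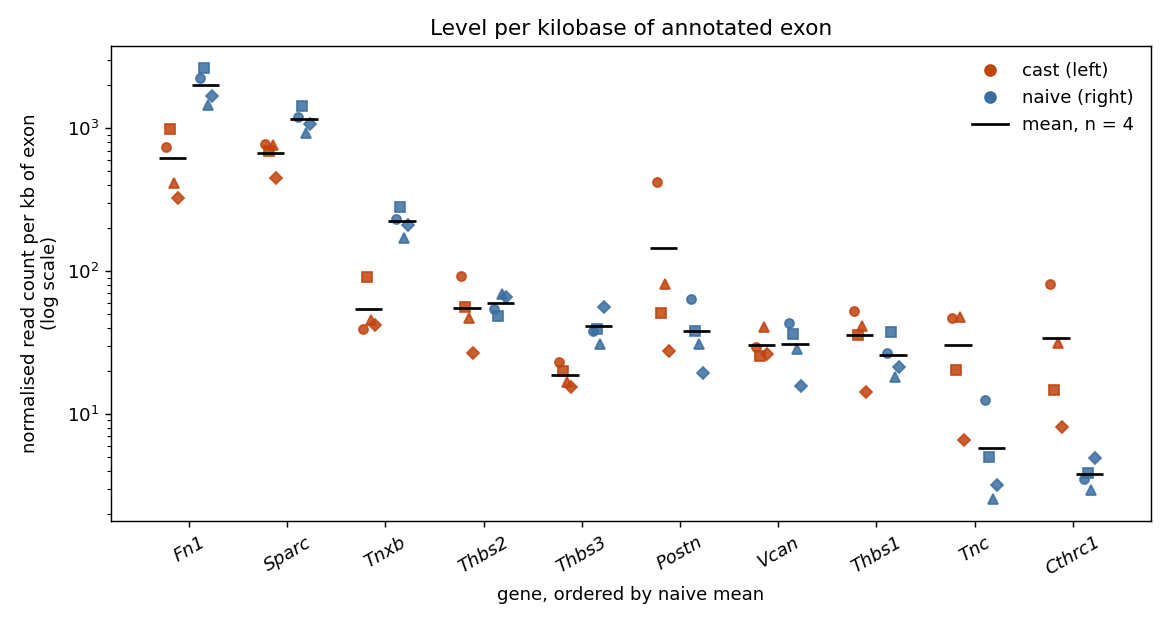
Normalised read count per kilobase of annotated exon (vertical axis, log scale) for the 10 genes in the order of their naive means; points are libraries, cast left and naive right within each gene, and lines are means of 4. Tnc and Cthrc1 are lowest in naive capsules, with means of 5.80 and 3.78. Their cast means are 30.4 (libraries 6.61 to 47.7) and 33.8 (8.12 to 80.8). Tnc overlaps between the groups and did not pass the test.

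The cast libraries differed among themselves in these genes, and not only in them. Over all genes, Pearson's r of log2 values was 0.957 to 0.968 between cast replicate 1 and the other cast libraries. Among those others it was 0.975 to 0.981. Genes are not independent replicates here. Cast replicate 4 had the lowest cast value of 8 of the 10 genes, all but Tnxb and Vcan, and cast replicate 1 had the highest of 6, namely Thbs1, Thbs2, Thbs3, Postn, Cthrc1 and Sparc. Relative to the naive mean, Cthrc1 was 4.22 higher on the log2 scale in cast replicate 1, 1.82 in replicate 2, 2.89 in replicate 3 and 1.01 in replicate 4. Tnn (4.76, 1.37, 3.19 and 0.51), Col12a1 (4.54, 2.04, 3.202 and 1.605) and Edil3 (3.94, 1.76, 2.90 and 1.54) had the same order of cast libraries, and so did Postn (3.59, 0.54, 1.21 and -0.34), Thbs1 and Sparc, whose values are given above. These genes were picked after their values were seen. Wisp2 had another order, with cast replicate 1 lowest (2.04, 3.15, 3.36 and 3.42). Among the fallen genes, Fn1 was lowest in cast replicate 4 (-2.60) and Tnxb in cast replicate 1 (-2.47). Summed fibroblast markers were 27766, 21438, 21933 and 20346 in the cast libraries in order of replicate. The 10 collagens listed as binding partners summed to 44863, 27525, 31974 and 12870.5. Both sums were highest in cast replicate 1, then 3, 2 and 4. The collagen sum includes Col12a1, picked above, and the fibroblast sum includes the collagen genes Col1a1 and Col1a2, so the sums add no independent support.

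**Figure D4:**
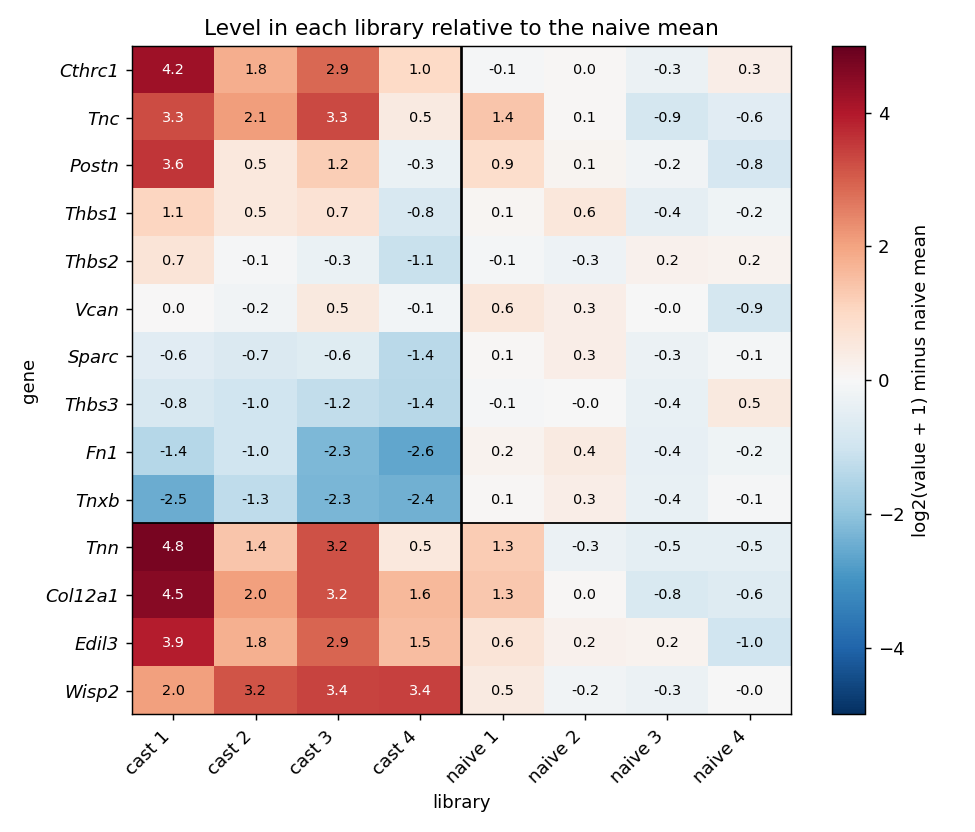
Level of each gene in each library as log2(value + 1) minus the naive mean (colour scale and printed numbers); rows above the horizontal line are the 10 genes, those below are 4 genes of the related lists, and the vertical line parts cast from naive libraries. Cthrc1, Tnn, Col12a1, Edil3, Postn, Thbs1 and Sparc share an order of cast libraries, with replicate 1 highest, then 3, 2 and 4.

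Of the called genes, promoter windows in RefSeq (build GRCm38.p6) were at hand for Tnxb and Thbs3, and that of Tnc, which did not pass, is shown as the window of the other tenascin among the 10. Each window runs from 250 bases before to 50 bases after the annotated start, 5′ to 3′ on the strand of the gene, and the start is that of the annotation used for coordinates here. Windows were found for 7 of the 10 genes, and the others are Fn1, Thbs1 and Cthrc1. Capitals mark matches, on either strand, to the motifs of AP-1 (TGANTCA), the TATA box (TATAAA), the CCAAT box (CCAAT), TEAD (CATTCC) and Smad (CAGACA), none of which overlap in these windows.
Tnxb promoter, chr17:34670285-34670584, plus strand: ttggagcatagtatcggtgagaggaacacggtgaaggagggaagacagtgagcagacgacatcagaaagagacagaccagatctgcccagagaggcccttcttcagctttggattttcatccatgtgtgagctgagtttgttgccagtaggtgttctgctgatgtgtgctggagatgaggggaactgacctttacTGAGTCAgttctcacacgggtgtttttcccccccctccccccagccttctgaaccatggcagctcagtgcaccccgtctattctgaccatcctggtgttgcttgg
Thbs3 promoter, chr3:89214930-89215229, plus strand: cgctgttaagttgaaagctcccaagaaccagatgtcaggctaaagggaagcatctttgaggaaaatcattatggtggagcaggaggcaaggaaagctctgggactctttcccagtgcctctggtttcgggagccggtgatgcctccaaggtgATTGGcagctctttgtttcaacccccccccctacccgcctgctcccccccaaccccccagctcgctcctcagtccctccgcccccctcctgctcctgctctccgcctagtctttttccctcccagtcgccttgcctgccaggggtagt
Tnc promoter, chr4:64046966-64047265, minus strand: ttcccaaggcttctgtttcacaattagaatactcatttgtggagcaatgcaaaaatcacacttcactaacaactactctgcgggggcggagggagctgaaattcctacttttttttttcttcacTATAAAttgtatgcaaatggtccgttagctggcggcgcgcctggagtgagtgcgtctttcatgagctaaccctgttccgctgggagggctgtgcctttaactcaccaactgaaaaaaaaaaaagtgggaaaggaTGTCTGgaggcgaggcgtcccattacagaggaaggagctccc
The Tnxb window holds 1 AP-1 match, which begins at position -55 from the start, and AP-1 matches occur in 7.81% of all 32851 promoter windows of this length. The Thbs3 window holds 1 CCAAT match in reverse at position -98, a motif found in 37.4% of windows. The Tnc window holds 1 TATA match at position -126 (13.6% of windows) and 1 Smad match in reverse at position 8 (21.04% of windows). RefSeq also has an overlapping Tnc window for a start at 64046936, not printed, with 1 TATA match and 2 Smad matches. None of the printed windows has a TEAD match (14.7% of windows). A match describes the letters only.

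Of 27 tested relatives of these genes in other matrix families, 6 rose, 2 fell and 19 did not pass, with a median log2 fold change of 0.022, where 12.0% of all genes were called (6.51% higher and 5.46% lower). Wisp2, a CCN family protein of connective tissue also called Ccn5, had 229, 497, 575 and 596 in cast replicates 1 to 4, against 76.4, 48.9, 44.8 and 54.3 in naive replicates 1 to 4. All cast libraries were above all naive ones (log2 fold change 2.99, adjusted p = 0.000621). Smoc2, which shares the calcium-binding module of Sparc, rose to 137 ± 41.7 in cast capsules, against 53.2 ± 7.502 in naive capsules (log2 fold change 1.31, adjusted p = 0.00555). Edil3, an integrin-binding protein of vessels and stroma, rose to 69.9 ± 56.1 in cast capsules, against 9.53 ± 4.24 in naive capsules (log2 fold change 2.53, adjusted p = 0.0157; 0.0538 without cast replicate 3). With the muscle covariate its log2 fold change was 3.81. Spon2, a secreted protein that binds integrins and microbes, fell to 1.41 ± 0.610 in cast capsules, against 18.5 ± 11.1 in naive capsules (log2 fold change -2.84, adjusted p = 0.00388). The cast values rest on 5 to 14 reads, and the log2 fold change was -1.75 with a pseudocount of 5 and -3.70 with edgeR, past the threshold in both. Efemp2, Wisp1 and Emilin1 also rose and Ctgf fell, genes named after their values were seen.

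Of 28 tested receptors and partners of these proteins, 1 rose, 3 fell and 24 did not pass (median 0.11), a share of calls near the 12.0% of all genes. Selp, P-selectin of platelets and endothelium, rose to 79.9 ± 36.1 in cast capsules, against 20.01 ± 5.93 in naive capsules (log2 fold change 1.86, adjusted p = 0.0110; 1.04 and 0.0960 with the muscle covariate). Cav1, the caveolin through which fibronectin is taken up, fell to 254 ± 51.0 in cast capsules, against 703 ± 188 in naive capsules (log2 fold change -1.45, adjusted p = 0.00801; 0.0516 with the muscle covariate). Anxa2, a tenascin-C receptor on endothelial cells, had a log2 fold change of -1.13 (adjusted p = 0.0362), and Itga9, the integrin chain that binds tenascin-C, one of -0.53 (adjusted p = 0.0405). Both calls were sensitive to the libraries and settings used: that of Anxa2 was lost in 8 and that of Itga9 in 11 of 20 alternatives, with adjusted p of up to 0.189 and 0.146. With the muscle covariate the log2 fold change of Anxa2 was -2.01 (adjusted p = 0.00314).

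Of 19 tested genes that crosslink or cut this matrix, 2 rose, 2 fell and 15 did not pass (median 0.12), where 6.51% of all genes rose and 5.46% fell. Lox, the lysyl oxidase that crosslinks collagen and binds fibronectin, had 1158, 585, 548 and 496 in cast replicates 1 to 4, against 191, 175, 208 and 96.4 in naive replicates 1 to 4. Its groups were apart (log2 fold change 2.02, adjusted p = 0.00493). Adamts4, a protease that cuts versican and aggrecan, rose to 35.0 ± 12.8 in cast capsules, against 8.60 ± 3.41 in naive capsules (log2 fold change 1.92, adjusted p = 0.00914). Loxl2, a further lysyl oxidase, fell to 140.1 ± 44.3 in cast capsules, against 402 ± 165 in naive capsules (log2 fold change -1.49, adjusted p = 0.0232), but without cast replicate 2 or 3 or naive replicate 1 or 2 the adjusted p was 0.0510 to 0.0664. Pcolce2, an enhancer of procollagen processing, fell to 54.7 ± 26.8 in cast capsules, against 195 ± 66.0 in naive capsules (log2 fold change -1.91, adjusted p = 0.0125).

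Of 10 collagens to which these proteins bind, Col12a1 rose and 9 did not pass (median -0.27), a share of calls near the 12.0% of all genes. Col12a1, the fibril-associated collagen that binds tenascin-X, had 1058, 186, 418 and 138 in cast replicates 1 to 4, against 115, 45.8, 26.0 and 28.5 in naive replicates 1 to 4. The groups were apart by a narrow margin, cast replicate 4 against naive replicate 1 (log2 fold change 2.85, adjusted p = 0.0219), and the call was lost without cast replicate 3, naive replicate 2 or naive replicate 3 (adjusted p = 0.0682, 0.0575 and 0.0639).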

How the data were processed

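Posterior knee joint capsules were flash frozen and total RNA (200 ng) was depleted of ribosomal RNA for directional libraries with paired 150-nt reads, per the labels' protocols. The protocol names Trimmomatic 0.38 and transcripts of hg38 with Bowtie2 within RSEM, whereas mm10, edgeR, RSEM, Bowtie2 and Trimmomatic 0.36 stand in the submitters' processing notes. The deposited symbols are those of mouse genes. For each gene the authors deposited a signal value, a normalised read count, in every library. Values were whole multiples, within 0.01, of the value of 1 read for 100% of genes, so whole reads were recovered.

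Values were taken to log2 after adding 1, genes averaging 0.5 or more were kept (15120) and groups were compared with limma-trend over all of them, with Benjamini-Hochberg adjustment at 0.05. Alternatives were other pseudocounts, filters and scalings, replicate number as a block, DESeq2 and edgeR's quasi-likelihood test on the recovered reads, and each library left out. The muscle covariate and the removal of cast replicates 1 and 2 were chosen after seeing the data. All 10 genes are named, with the 4 smallest p values among called genes of each related list and the paralogues of the 10. Some results that this rule would name are not reported here. The 10 genes and the lists were chosen with earlier results of these data known. Coordinates and exon lengths are from GENCODE M21 (GRCm38). Replicate pairs differed by more than sampling noise. Versions were limma 3.58.1, DESeq2 1.42.0 and edgeR 4.0.16 in R 4.3.3, and Python 3.11.15. The limma step was tested on simulated data.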

Additional observations from a re-analysis of the deposited data

Results flagged for a closer look

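Postn in cast replicate 1 (3649.5) stood apart from the other cast libraries, with a gap to the next library of 0.864 of the range of the group, over Dixon's critical value for 4 samples at the 95% level. Tnxb in cast replicate 2 (1119.8) stood apart in the same way, with a gap of 0.893 of the range. Of 20 groups examined (10 genes in cast and naive capsules), 2 were flagged, where chance flags about 1 in 20. Without cast replicate 1 the log2 fold change of Postn was 0.47 (adjusted p = 0.579 by limma), and without cast replicate 2 that of Tnxb was -2.38 (adjusted p = 0.00154).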

How the results depend on the processing

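Tnxb and Thbs3 kept their calls in all 20 alternatives, while Fn1 lost its call in 8 and Cthrc1 in 5, in each with the same direction. With no filter on low values, Fn1 had a log2 fold change of -1.81 (adjusted p = 0.0763). The number of the 10 genes that were higher was 2 with quantile normalisation, with scaling without muscle, erythroid and marrow genes, with the replicate block, with edgeR and with DESeq2 (the second being Tnc), 0 to 2 with 1 library left out and 0 without cast replicates 1 and 2. The number that were lower was 2 to 3 with 1 library left out. Over all genes, 984 were higher and 826 lower. With 1 library left out, 510 to 1382 were higher and 406 to 1283 lower. In the same order, leaving out cast replicates 1 and 2 gave 374 and 343. The muscle covariate gave 2769 and 1375, and DESeq2 gave 1437 and 1254. Quantile normalisation turned the balance of the calls (820 higher and 981 lower, or 45.5% higher, against 54.4% without it), and with the muscle covariate 66.8% were higher. Uncalled genes whose direction turned were Thbs1 without cast replicates 1 and 2 (-0.034), Thbs2 without cast replicate 4 (-0.51 to 0.086 with 1 library left out), and Vcan with edgeR (-0.021), with DESeq2 (-0.027), and without cast replicate 3 or naive replicate 4 (-0.24 to 0.24 with 1 library left out). Leaving out cast replicates 1 and 2 also ended the calls of Cthrc1, Edil3, Cav1, Anxa2, Itga9, Pcolce2, Loxl2 and Col12a1 (adjusted p = 0.0629 to 0.189). The muscle covariate ended those of Fn1 (adjusted p = 0.144), Selp (0.0960), Cav1 (0.0516), Itga9 (0.0534) and Loxl2 (0.119). With this covariate Lox (2.95), Col12a1 (3.89) and Pcolce2 (-2.70) had larger log2 fold changes. The cause of these changes was not tested. Same-numbered cast and naive libraries had correlations of 0.0797, 0.0353, -0.0571 and -0.0214 in their deviations from the group means. These values show no pairing by replicate number but cannot exclude it. With the replicate block Tnc and Tnn passed (adjusted p = 0.0353 and 0.0311), as Tnn also did with edgeR and DESeq2, and Anxa2 and Itga9 did not (0.0726 and 0.0922). The 1503880 reads of naive replicate 4, where Cthrc1 had 12, limit what can be seen of low genes.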
